A study of Ovis aries with 15 samples.

Results

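The genes described are 10 calcium genes of the ovine mammary gland, out of 24691 features in the deposited table: the hormone gene PTH-RP (the table's name for PTHLH), the calcium receptor CASR, the entry genes ORAI1 and STIM1, and the calcium pumps ATP2A2, ATP2C1, ATP2C2, ATP2B1, ATP2B2 and ATP2B4. They were chosen by symbol as genes of calcium sensing, entry and pumping. A row was found by symbol for 9 of them. ATP2B4 was matched by its gene ID to the row named LOC101104306, a short gene model on an unplaced scaffold with 1260 bases of exon, so its level rests on part of a gene.

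RNA-seq was run on needle biopsies of mammary parenchyma from 2-year-old Romney ewes in their first pregnancy and lactation, with no transgene or drug in any group. There are 9 libraries of late pregnancy, sampled on day 135 of gestation (SD 2.4), and 6 of lactation, sampled 15 days after lambing (SD 1.27). Each library is a pool of ewes, and the sources differ on whether a lactation pool held 2 or 3, so the spread between libraries is a spread between pools and not between single animals. The ewes' own dams had been fed a sub-maintenance (LM), maintenance (MM) or ad libitum (HM) pasture allowance in early gestation and a maintenance allowance afterwards, and each of these 3 groups holds 3 late pregnancy and 2 lactation pools. The ewes themselves were all fed alike.

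A lactating gland moves calcium from blood to milk against a steep gradient. Parathyroid hormone-related protein, made by the secretory epithelium, enters the blood and frees calcium from bone, and the calcium receptor on mammary cells is known, mostly from mice, to restrain that secretion when calcium is plentiful. Inside the cell, calcium enters through channels such as ORAI1, is stored by pumps of the endoplasmic reticulum (SERCA, such as ATP2A2) and of the Golgi (SPCA, ATP2C1 and ATP2C2), and leaves through the plasma membrane pumps (PMCA, ATP2B1 to ATP2B4), of which ATP2B2 is known for the apical membrane facing milk.

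Between late pregnancy and lactation PTH-RP rose 15.2-fold, the Golgi pump ATP2C2 rose 11.5-fold and the plasma membrane pump ATP2B2 rose 7.47-fold. ATP2A2 and ORAI1 rose more than 2-fold and ATP2C1 by 1.17-fold, while ATP2B1 fell 2.65-fold and STIM1 1.17-fold. Of the 9 genes that passed the filter on low counts, 6 were called higher and 2 lower, 1 was not called, and CASR was too low to test. These counts stand against a background in which 68.4% of the 13345 tested genes were called, 33.1% higher and 35.2% lower. For 6 of the 9 no library of one state lay within the range of the other, against 40.2% of all tested genes. A call here is an adjusted p under 0.05 in edgeR's quasi-likelihood test, and levels are CPM, the reads on a gene relative to a library size scaled by TMM, a method that assumes that most genes do not change.

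The scaling matters because 7 milk protein genes (CSN1S1, CSN1S2, CSN2, CSN3, BLG, LALBA and GLYCAM1, as found in the table) held between 13.7% and 23.4% of late pregnancy reads and between 71.3% and 75.8% of lactation reads. With library size alone as the scale, the median log2 difference of all tested genes is -1.94 instead of -0.03, and 2.70% of the calls are higher instead of 48.4%. Upper-quartile scaling puts that median at -0.18 and 36.3% of the calls on the higher side. PTH-RP, ATP2C2 and ATP2B2 were higher in lactation under every scaling tried. ATP2A2, ORAI1 and ATP2C1 were higher under TMM, upper-quartile and quantile scaling and lower under library size alone, where they still lay above the median gene. Which of these scales is nearest to an amount per cell was not tested.

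**Figure D1:**
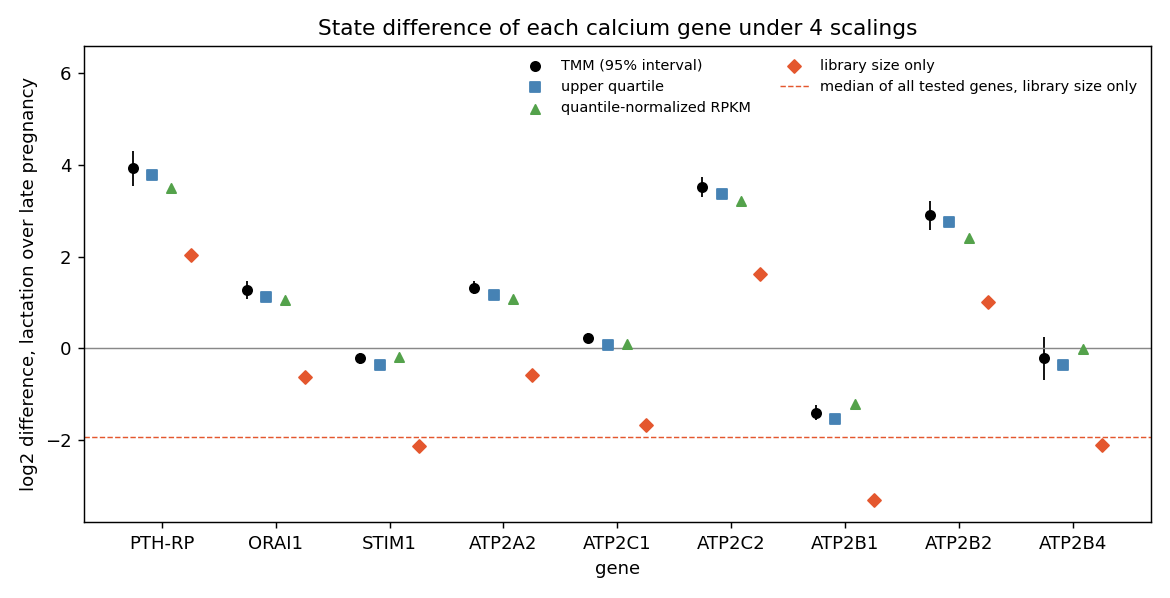
Log2 difference between lactation and late pregnancy (vertical axis) of the 9 tested calcium genes under 4 scalings, with the 95% interval of the TMM fit as a bar. PTH-RP, ATP2C2 and ATP2B2 lie above 0 under all 4, and under library size alone ATP2A2, ORAI1 and ATP2C1 lie below 0 but above the dashed median of all tested genes at -1.94.

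Markers of several cell types also differed between the states. The summed level of 6 luminal epithelial markers was 1417 to 1736 CPM in late pregnancy and 2290 to 2551 in lactation, and 4 of the 6 were called higher under TMM, although those 4 (KRT18, KRT19, EPCAM and ELF5) were lower with library size alone. Fibroblast markers summed to 1311 to 2092 and 618 to 998, with 5 of 6 called lower, and T cell markers to 27.7 to 42.0 and 9.09 to 13.7, with 4 of 4 called lower. Endothelial markers summed to 187 to 256 and 132 to 187 (3 of 4 lower). The summed ranges of the myoepithelial (559 to 603 and 461 to 670), adipocyte (221 to 426 and 300.3 to 392) and macrophage markers (34.6 to 44.0 and 37.1 to 51.2) overlapped. Called genes still went both ways among the myoepithelial (2 of 7 higher and 2 lower) and macrophage markers (1 of 3 higher and 1 lower). Of 2 tested adipocyte markers 0 were called, and most of the adipocyte sum was FABP4. Among all tested genes 33.1% were called higher and 35.2% lower. No marker list was wholly at 0, and the adipocyte markers PLIN1 and LEP and the T cell marker CD8A averaged under 1 CPM. In such bulk samples fewer cells of a type and less RNA per cell cannot be told apart, and the part of cell makeup in the differences below was not tested.

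PTH-RP, the ligand, lies on chromosome 3 at 186631810 to 186643824 (coordinates as in the deposited table, build Oar_v3.1 in the submitters' notes), with 1416 bases of exon in 2 transcripts. The study's own RT-qPCR primers for it are shown because they define the stretch of the transcript by which this gene can be measured again, 5′ to 3′ and in lower case:
PTH-RP forward: ctgggctggaagaggactac
PTH-RP reverse: tctgaaggtctctgctgaaaaa

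In late pregnancy the lowest library held 4.39 CPM of PTH-RP, the median 8.02 and the highest 13.5. In lactation the lowest held 81.4, the median 123 and the highest 167. The lowest lactation pool was thus far above the highest late pregnancy pool. The mean was 8.14 ± 2.66 (SD, n = 9) in late pregnancy and 123 ± 30.4 (SD, n = 6) in lactation, a log2 difference of 3.93 ± 0.18 (SE; edgeR, adjusted p = 2.70e-13). The extreme late pregnancy pools, at 4.39 and 13.5, both came from the MM group. Raw reads on the gene ran from 92 to 272 per library in late pregnancy and from 565 to 1021 in lactation, and all were uniquely placed.

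CASR, the receptor that senses calcium outside the cell, was all but absent at this depth. It lies on chromosome 1 at 184975363 to 185003948 with 3099 bases of exon. Its exons held 4 reads in all across the late pregnancy libraries, with 6 of 9 libraries at 0 and at most 2 reads in one, and 0 reads in all 6 lactation libraries. A count of 0 allows up to 3 reads per library, which is 0.261 to 0.659 CPM in the lactation libraries and 0.101 to 0.274 in those of late pregnancy. Intron reads added 2 more, in a single late pregnancy library. No difference between the states can be given for it, and the planned ratio of PTH-RP to CASR has no value in lactation. These limits cover counting error only.

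The hormone side around PTH-RP was thin as well. PTH itself, the relative of PTH-RP from the parathyroid gland, was at 0 reads in all 15 libraries, as were the calcium-sensing receptor relative GPRC6A and the phosphate hormone FGF23. PTH1R, the receptor shared by both hormones, averaged 1.21 ± 0.19 (SD, n = 9) CPM in late pregnancy and 0.89 ± 0.33 (SD, n = 6) in lactation and was not called (log2 -0.53 ± 0.23 SE, edgeR adjusted p = 0.0513). PTH2R, the calcitonin receptor CALCR and calcitonin (CALCA) had at most 4 reads in any library. The G proteins through which such receptors signal were easily measured. GNA11 rose by 0.53 ± 0.07 (log2, SE) and GNAQ by 0.24 ± 0.08, and both fell with library size alone. VDR, the vitamin D receptor, went from 37.2 ± 3.35 (SD, n = 9) to 51.6 ± 7.70 (SD, n = 6) CPM, with overlapping libraries and a sign that also turned with library size alone.

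The largest difference of that list was in KL, which encodes klotho, the co-receptor of FGF23 and a regulator of calcium and phosphate handling in the kidney. KL ranged from 24.7 to 57.9 CPM in late pregnancy and from 0.19 to 2.61 in lactation. Every lactation library was below every late pregnancy library, with a log2 difference of -5.33 ± 0.32 (SE; edgeR, adjusted p = 1.46e-11). CALCRL, a receptor of the calcitonin family that binds adrenomedullin and related peptides, fell by 1.23 on the log2 scale. In all, 14 of the 17 genes of this hormone list have a row and 8 could be tested, of which 5 were called higher, 2 lower and 1 not. Over this and the 7 lists described below, 41 of 81 tested genes were called higher and 28 lower. With library size alone 39 of the 41 were lower, the exceptions being SLC34A2 and RYR3. Beside these counts, 33.1% of all tested genes were called higher and 35.2% lower. Of the 4419 called higher, 3951 were lower with library size alone.

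**Figure D2:**
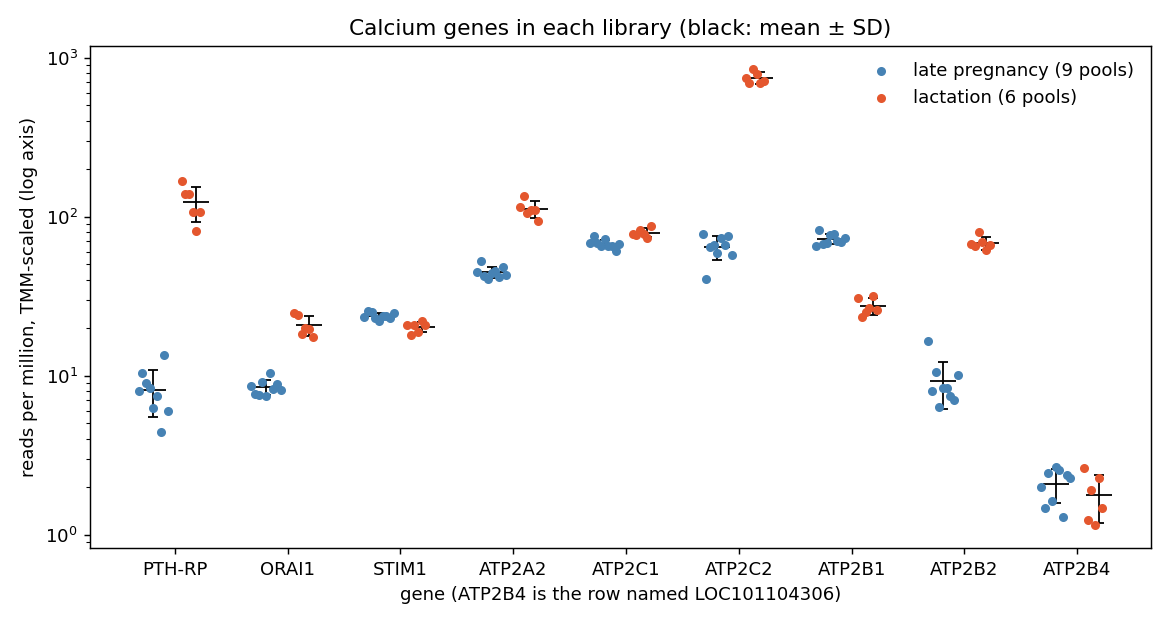
Level of each calcium gene in every library (points; CPM scaled by TMM, log axis), with mean ± SD in black; CASR, at 0 in most libraries, is not drawn. The lactation pools lie wholly above the late pregnancy pools for PTH-RP, ORAI1, ATP2A2, ATP2C2 and ATP2B2, and wholly below for ATP2B1. The ranges of the states overlap at one end for STIM1 and ATP2C1, and largely coincide for ATP2B4.

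ORAI1 forms the pore of the store-operated calcium channel and STIM1 is the sensor in the endoplasmic reticulum that opens it. ORAI1, on chromosome 17 at 53191504 to 53206393 with 1395 bases of exon, ran from 7.40 through a median of 8.28 to 10.4 CPM in late pregnancy, and from 17.6 through 19.9 to 24.6 in lactation. No library of one state entered the range of the other, and the log2 difference was 1.27 ± 0.09 (SE; edgeR, adjusted p = 2.22e-10) under TMM, with the opposite sign (-0.63) under library size alone. Both HM lactation pools, at 23.9 and 24.6, were above the other lactation pools.

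STIM1, on chromosome 15 at 49312417 to 49506741 with 4327 bases of exon, ran from 22.0 through 23.5 to 25.3 CPM in late pregnancy and from 17.9 through 20.8 to 22.0 in lactation. The 2 ranges met at one end, where the highest lactation library just passed the lowest of late pregnancy. The log2 difference was -0.22 ± 0.06 (SE; edgeR, adjusted p = 0.00203), and within the 7 libraries labelled lane 7 it was -0.23 with an adjusted p of 0.0700 in edgeR. So on the TMM scale the pore gene rose while the sensor gene fell slightly. With library size alone both fell (-0.63 for ORAI1 and -2.13 for STIM1). Within a library, where scaling cancels, the ratio of ORAI1 to STIM1 reads per length had a geometric mean of 1.10 in late pregnancy and 3.16 in lactation, a log2 difference of 1.52 with no overlap between the states. This ratio was chosen after the values of both genes were seen and is given as a description, with no test.

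Other entry genes went both ways, as tested genes did in general (33.1% called higher and 35.2% lower). Of 19 listed genes 14 could be tested, with 5 called higher, 5 lower and 4 not called, and a median log2 difference of -0.37 beside -0.03 over all tested genes. The relative of STIM1, STIM2, which responds to smaller losses of stored calcium, went from 9.06 ± 1.14 (SD, n = 9) to 25.9 ± 3.62 (SD, n = 6) CPM, a log2 difference of 1.49 ± 0.10 (SE; edgeR, adjusted p = 3.45e-11). The stretch-gated channel PIEZO1 rose by 0.93 ± 0.06 and SARAF, a brake on store-operated entry, by 0.61 ± 0.06. CRACR2A (log2 -1.85), the channel TRPC1 (-1.03) and TMEM110 (-0.97) fell. STIM2, PIEZO1 and SARAF turned to falls with library size alone, and the 3 that fell did so under every scaling. The epithelial calcium channels known from gut and kidney were scarce. TRPV5 had at most 1 read in any library, and TRPV6 averaged 1.97 ± 1.37 (SD, n = 9) and 1.38 ± 1.09 (SD, n = 6) CPM and was not called (edgeR, adjusted p = 0.528).

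ATP2A2 encodes SERCA2, which fills the calcium store of the endoplasmic reticulum. It lies on chromosome 17 at 53802761 to 53859839, 596 kb from ORAI1, with 3994 bases of exon. Its level ran from 40.7 through 44.3 to 52.3 CPM in late pregnancy and from 93.5 through 110.1 to 135 in lactation. All 6 lactation libraries were above all 9 of late pregnancy. The means were 44.7 ± 3.60 (SD, n = 9) and 112 ± 13.5 (SD, n = 6), and the log2 difference was 1.32 ± 0.07 (SE; edgeR, adjusted p = 1.55e-12) under TMM but -0.59 under library size alone.

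Around that store the release channels split by gene. Of the ER list 11 of 15 genes were tested, with 8 called higher, 2 lower and 1 not, beside 33.1% of all tested genes called higher and 35.2% lower. The median log2 difference was 0.42 beside -0.03 over all tested genes. ITPR1, an inositol trisphosphate receptor, went from 56.9 ± 17.7 (SD, n = 9) to 11.1 ± 2.35 (SD, n = 6) CPM, while its relative ITPR2 went from 44.5 ± 5.14 to 90.3 ± 20.1. ITPR1 fell by 2.39 on the log2 scale (± 0.22 SE; edgeR, adjusted p = 6.00e-09) and ITPR2 rose by 1.02 ± 0.11 (SE; edgeR, adjusted p = 6.12e-08), both with no overlap between states. ITPR3, at 3.97 ± 0.81 and 2.84 ± 1.07 CPM, fell by 0.47. RYR3, a ryanodine receptor best known from muscle and brain, ran from 0.27 to 0.81 CPM in late pregnancy and from 8.70 to 27.3 in lactation, and its log2 difference of 4.90 ± 0.25 (SE; edgeR, adjusted p = 1.26e-12) exceeded that of every calcium gene among the 10. The chaperone HSPA5, which also binds calcium in that store, rose by 1.19 ± 0.08. ITPR2 and HSPA5 changed sign with library size alone, and RYR3 and ITPR1 did not.

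The 2 Golgi pumps behaved unlike each other. ATP2C1 (SPCA1, found in most tissues) lies on chromosome 1 at 256983599 to 257144988 with 5275 bases of exon. It ran from 61.2 through 67.6 to 75.4 CPM in late pregnancy and from 72.8 through 77.7 to 87.7 in lactation, with overlapping ranges. Its log2 difference of 0.23 ± 0.05 (SE; edgeR, adjusted p = 7.93e-04) was called, but upper-quartile scaling (0.08, adjusted p = 0.192 in edgeR) and quantile-normalized RPKM (0.09, adjusted p = 0.138 in limma) did not call it, and library size alone reversed it (-1.68).

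ATP2C2 (SPCA2, known from secretory epithelia, and as an activator of ORAI1) lies on chromosome 14 at 10104684 to 10164012 with 3570 bases of exon. In late pregnancy it ran from 40.6 through 66.4 to 77.9 CPM, and in lactation from 688 through 727 to 850.4. The gap between the states was several times the whole late pregnancy range, and the log2 difference was 3.53 ± 0.11 (SE; edgeR, adjusted p = 6.15e-16). The lactation pools were close to each other, with a mean of 745 ± 63.3 (SD, n = 6), and both LM pools, at 785 and 850.4, were the highest. Reads on ATP2C2 numbered 444 to 1931 per library in late pregnancy and 3396 to 7965 in lactation.

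Within each library, ATP2C2 made up 58.1% ± 6.11 (SD, n = 9) of the reads per length on the 2 Golgi pumps in late pregnancy, with a range of 44.3% to 64.5%. In lactation it made up 93.3% ± 0.58 (SD, n = 6), from 92.3% to 93.9%. The difference of 35.2 percentage points does not depend on scaling between libraries and was the most extreme of all 5005 splits (two-sided exact permutation test, p = 0.0002, the smallest possible). The genes were chosen with earlier results of these data known, and this p does not allow for that choice. Summed per kilobase of exon on the TMM scale, both pumps together were at 30.9 ± 2.61 (SD, n = 9) CPM per kb in late pregnancy and 224 ± 18.0 (SD, n = 6) in lactation, so nearly all of that rise was ATP2C2. This sum depends on scaling and was not computed with library size alone. There the log2 difference was 1.62 for ATP2C2 and -1.68 for ATP2C1.

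Genes for calcium-binding proteins of the Golgi and secretory route were all measurable, and 12 of 12 were called, 7 higher and 5 lower, beside 68.4% of all tested genes called and 33.1% called higher, with a median log2 difference of 0.36. All 7 were lower with library size alone, as were 3951 of the 4419 genes called higher among all tested genes. NUCB2, which encodes nucleobindin 2, rose by 1.49 ± 0.08 (log2, SE), FAM20C, the kinase that phosphorylates caseins, by 1.11 ± 0.09, and SDF4, a Golgi calcium-binding protein, by 0.85 ± 0.05. RCN1 (-1.38), SMOC2 (-1.12) and SPARC (-0.95) fell. The last 2 encode matrix proteins made largely by stromal cells, and the part of cell makeup in their falls was not tested. In the list of other pumps and exchangers 7 of 15 genes were tested, 2 were higher (TMEM165, a Golgi ion transporter, by 0.46 ± 0.07, and the sodium-calcium exchanger SLC8A1 by 0.35 ± 0.14) and 2 lower (SLC24A3 by -1.72 ± 0.15 and ATP2A3 by -1.03 ± 0.19), and both rises turned with library size alone.

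The plasma membrane pumps exchanged places. ATP2B1 (PMCA1, found in most cells) lies on chromosome 3 at 125848193 to 125982479 with 7224 bases of exon. It ran from 65.5 through 70.0 to 81.9 CPM in late pregnancy and from 23.2 through 26.3 to 31.8 in lactation. Every lactation library was below every late pregnancy library, with a log2 difference of -1.40 ± 0.07 (SE; edgeR, adjusted p = 1.50e-12).

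ATP2B2 (PMCA2) lies on chromosome 19 at 54258120 to 54376057 with 3714 bases of exon. It ran from 6.36 through 8.31 to 16.5 CPM in late pregnancy and from 61.6 through 66.8 to 80.4 in lactation. The states did not overlap, and the log2 difference was 2.90 ± 0.15 (SE; edgeR, adjusted p = 1.20e-12). One late pregnancy pool, HM pool 1, stood above the rest at 16.5, the next being at 10.6. Leaving out single libraries moved the log2 difference between 2.84 and 3.06. ATP2B4 (PMCA4, as the row LOC101104306) ran from 1.30 through 2.26 to 2.67 CPM in late pregnancy and from 1.14 through 1.68 to 2.64 in lactation, ranges that largely coincide. Its log2 difference of -0.22 had a 95% interval from -0.69 to 0.24 (edgeR, adjusted p = 0.387), and its row held only 6 to 79 reads per library.

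Per length and within each library, ATP2B2 was 17.4% ± 4.99 (SD, n = 9) of the 3 plasma membrane pumps in late pregnancy and 78.0% ± 3.64 (SD, n = 6) in lactation. The late pregnancy libraries ran from 13.7% to 29.4%, the highest being HM pool 1 again, and the lactation libraries from 72.8% to 81.3%. The difference of 60.7 percentage points was the most extreme of the 5005 splits (two-sided exact permutation test, p = 0.0002, the smallest possible). As for the Golgi pumps, this p does not allow for the choice of genes with earlier results known. The 3 pumps together were at 14.1 ± 1.02 (SD, n = 9) CPM per kb in late pregnancy and 23.6 ± 1.77 (SD, n = 6) in lactation, a ratio of 1.67 on the TMM scale. On that scale the makeup of the family differed far more than its sum. Unlike the share, the sum depends on scaling, and it was not computed with library size alone. There the log2 difference was -3.31 for ATP2B1 and 1.00 for ATP2B2. The fourth gene of the family, ATP2B3, had at most 3 reads in any library.

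**Figure D3:**
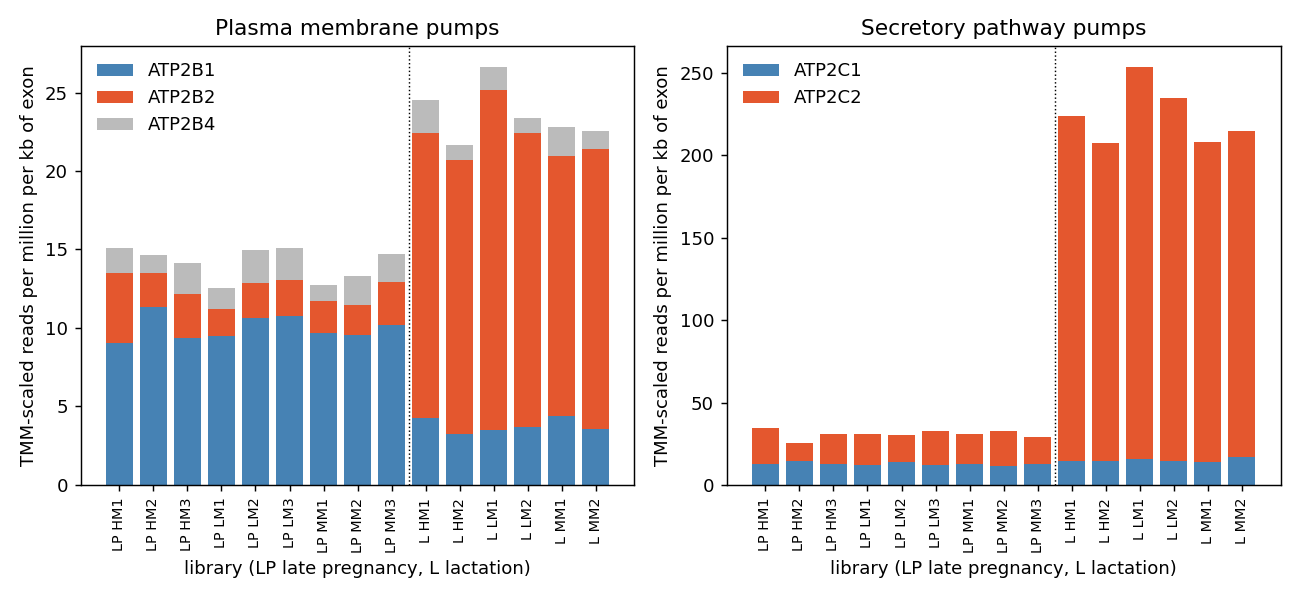
Stacked levels of the plasma membrane pumps (left) and the Golgi pumps (right) in each library, in TMM-scaled CPM per kb of exon, with late pregnancy left and lactation right of the dotted line. ATP2B1 makes up most of each left-hand bar of the plasma membrane pumps and ATP2B2 most of each right-hand one (72.8% to 81.3%), and ATP2C2 makes up 92.3% to 93.9% of each lactation bar of the Golgi pumps.

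Put in order per kilobase of exon, the 10 genes changed rank between the states. In late pregnancy ATP2C2 (18.1 ± 3.19 CPM per kb, SD, n = 9), ATP2C1 (12.8 ± 0.79), ATP2A2 (11.2 ± 0.90) and ATP2B1 (10.0 ± 0.77) led, each overlapping the next in its library range. ORAI1 (6.05 ± 0.67), PTH-RP (5.75 ± 1.88) and STIM1 (5.48 ± 0.25) followed and overlapped each other. Then came ATP2B2 (2.47 ± 0.82) and ATP2B4 (1.65 ± 0.40), and last CASR. ORAI1 and STIM1 lay wholly between ATP2B1 and ATP2B2, while the wider range of PTH-RP overlapped those of both ATP2B1 and ATP2B2. In lactation ATP2C2 (209 ± 17.7, SD, n = 6), PTH-RP (87.0 ± 21.5) and ATP2A2 (27.9 ± 3.38) stood in that order with no overlap between neighbours. ATP2B2 (18.4 ± 1.75), ATP2C1 (15.0 ± 0.97) and ORAI1 (14.8 ± 2.11) each overlapped the next, and STIM1 (4.67 ± 0.35), ATP2B1 (3.77 ± 0.46) and ATP2B4 (1.41 ± 0.47) came below them. A level per length also depends on how complete each gene model is, which was not tested.

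Reads placed within a gene but outside its annotated exons, called intron reads here, gave a second readout of these genes from the same libraries. Whether they come from unspliced transcripts or from exon sequence that the annotation lacks was not tested. Of 10954 genes tested on introns 55.5% were called, and 7 of the 8 calcium genes that could be tested were among them, all in the direction of their exon reads. PTH-RP introns went from 3.42 ± 1.32 (SD, n = 9) to 45.8 ± 13.7 (SD, n = 6) CPM, a log2 difference of 3.76 ± 0.19 (SE; edgeR, adjusted p = 1.13e-14). The difference was 3.01 ± 0.11 for ATP2C2, 2.66 ± 0.16 for ATP2B2, 1.17 ± 0.08 for ATP2A2, 1.06 ± 0.27 for ORAI1 and 0.62 ± 0.11 for ATP2C1, and it was -1.30 ± 0.11 for ATP2B1. STIM1 introns gave -0.01 ± 0.15 (SE; edgeR, adjusted p = 0.956). Introns of ORAI1 rest on 5 to 20 reads per library and their ranges overlapped, whereas those of the other 6 called genes did not overlap between states. As with exons, the rises of ATP2A2, ORAI1 and ATP2C1 turned to falls under library size alone. Whether intron and exon differences were unequal was not tested.

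**Figure D4:**
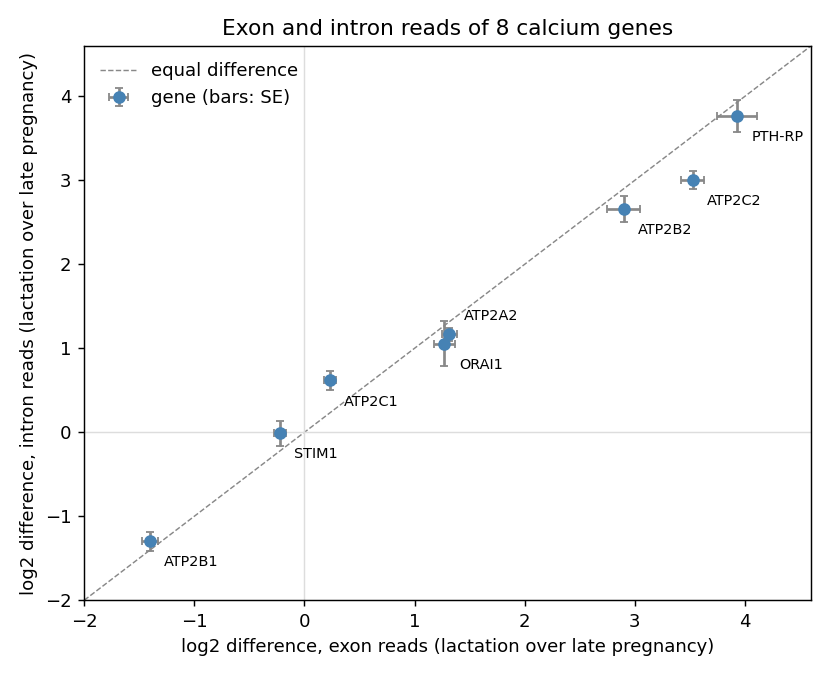
Log2 difference between lactation and late pregnancy from exon reads (horizontal) and intron reads (vertical) for the 8 calcium genes tested on both, with SE bars; the dashed line marks equal differences. The 8 genes stand in the same order on both axes, from ATP2B1 (-1.40 and -1.30) to PTH-RP (3.93 and 3.76).

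Dam nutrition was compared among the late pregnancy pools and as an interaction with state, and not within lactation alone. By the lane in the column names, every LM library is labelled lane 8 and both HM lactation libraries lane 7. The HM and MM libraries of late pregnancy carry both labels. Dam nutrition is thus partly confounded with lane label, which these comparisons did not take into account. Among 9 late pregnancy pools 0 of 13747 tested genes (0%) were called for dam nutrition in edgeR, with 571 at an unadjusted p under 0.05 and 20 called by DESeq2, and for its interaction with state 0 of 13345 (0%) were called, with 876 at an unadjusted p under 0.05 and 21 called by DESeq2. None of the 10 calcium genes was among the calls of either tool. ATP2B2 had the lowest unadjusted p of the set for dam nutrition in late pregnancy, 0.0353 (adjusted p = 1.00 in edgeR), at 11.7 ± 4.36 (SD, n = 3) CPM in the HM pools, 8.20 ± 1.65 in the MM pools and 7.69 ± 1.15 in the LM pools, and the HM mean includes the pool that stood apart. For the interaction the lowest were 0.0440 for ATP2B2 and 0.0480 for ORAI1 (adjusted p = 0.740 and 0.749 in edgeR). PTH-RP in lactation was at 152.5 ± 20.2 (SD, n = 2) CPM in the HM pools, 94.1 ± 18.0 in the MM pools and 123 ± 21.9 in the LM pools, with 0.396 as the unadjusted p of the interaction (edgeR, adjusted p = 0.896).

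Of 12571 genes that averaged 1 CPM or more in either state, the 5 whose log2 level was most like that of PTH-RP over the 15 libraries were GPAM (Pearson r = 0.992), ELF5 (0.991), SLC39A14 (0.991), DIO2 (0.990) and TTC39A (0.989). These correlations are descriptive, since all libraries share the contrast between states, and 82 genes reached at least 0.98. GPAM encodes an enzyme of triglyceride synthesis, ELF5 a transcription factor of the secretory epithelium, SLC39A14 a zinc and metal carrier and DIO2 the deiodinase that activates thyroid hormone. Within the 9 late pregnancy libraries alone r was 0.768 for GPAM, 0.785 for ELF5, 0.765 for SLC39A14, 0.738 for DIO2 and 0.638 for TTC39A. These 5 genes were picked for a high r over all 15 libraries, which include those 9. Their r within a state is therefore not independent of that choice. It cannot be set against that of the calcium genes below, which were not picked in this way. Among the calcium genes ATP2A2 was the nearest to PTH-RP, at rank 90 (r = 0.979 over all 15, 0.582 within late pregnancy and 0.366 within lactation). Within late pregnancy r was -0.02 for ATP2C2 and -0.08 for ATP2B2, and within lactation it was 0.347 and 0.461.

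Phosphate and magnesium also leave the gland in milk. Of 13 carriers 10 were tested, 8 were called higher, 1 lower and 1 not, beside 33.1% of all tested genes called higher, and the median log2 difference was 1.15 beside -0.03. With library size alone 7 of the 8 were lower and the list median was -0.76 beside -1.94 over all tested genes. SLC34A2, a sodium-phosphate cotransporter of the apical membrane of epithelia, ran from 5.48 to 11.2 CPM in late pregnancy and from 352 to 509.6 in lactation. No calcium gene of the 10 reached its log2 difference of 5.74 ± 0.15 (SE; edgeR, adjusted p = 1.12e-16), which stayed a rise under library size alone (3.83). The magnesium-linked genes CNNM4 (1.81 ± 0.11) and CNNM2 (1.51 ± 0.13) also rose and CNNM3 fell (-0.19 ± 0.08).

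Genes of calcium binding in the cytosol and of uptake by mitochondria were called in both directions. For comparison with both lists, 68.4% of all tested genes were called, 33.1% higher and 35.2% lower, with a median log2 difference of -0.03. All 10 tested genes of the cytosolic list (of 17) were called, 4 higher and 6 lower, with a median log2 difference of -0.31. S100A2 (1.34) and S100A10 (0.67) rose, and both turned to falls with library size alone, while S100A14 (-0.86), S100A13 (-0.47) and S100A16 (-0.43) fell. The calbindins CALB1 and S100G, which carry calcium across gut and kidney cells, had at most 9 and 3 reads in any library. Of 9 mitochondrial genes 2 were higher, 5 lower and 2 not called, with a median of -0.21. The pore of the mitochondrial calcium channel, MCU, went from 41.0 ± 5.77 (SD, n = 9) to 19.1 ± 1.26 (SD, n = 6) CPM, a log2 difference of -1.10 ± 0.09 (SE; edgeR, adjusted p = 2.18e-09). Its blocking partner MCUB went from 19.6 ± 2.68 to 3.21 ± 0.63, a log2 difference of -2.61 ± 0.13 (SE; edgeR, adjusted p = 6.23e-13). MCUR1 (0.58) and MICU3 (0.42) rose, and both turned to falls with library size alone.

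**Figure D5:**
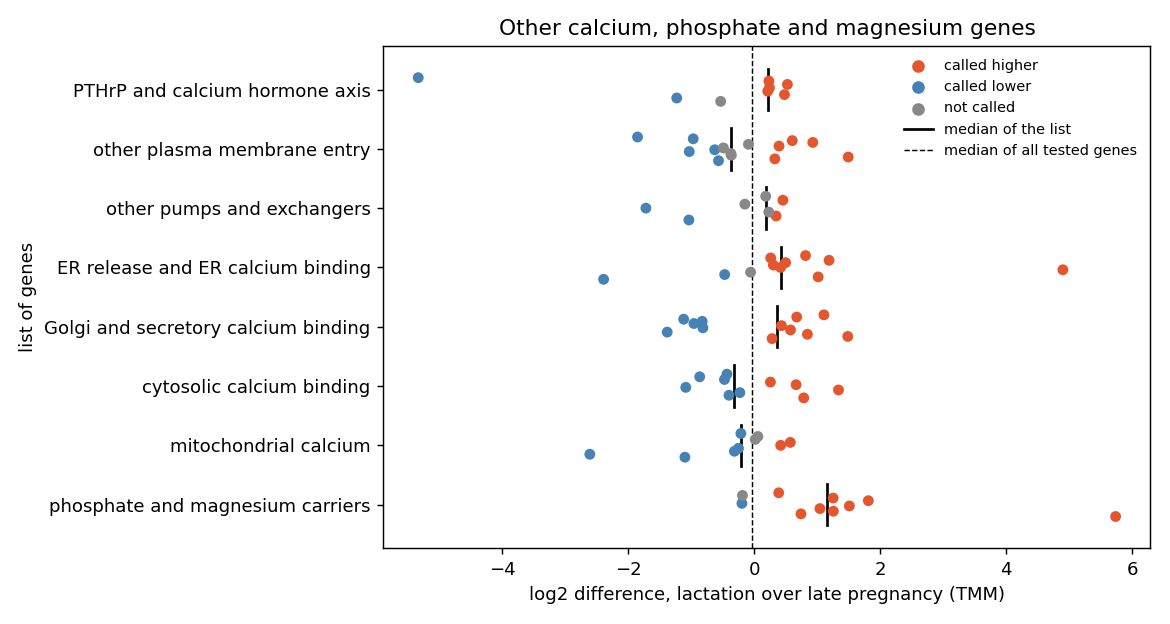
Log2 difference between lactation and late pregnancy (horizontal, TMM) of each tested gene in 8 lists of other calcium, phosphate and magnesium genes (vertical), coloured by call, with each list's median as a black bar and the median of all tested genes, -0.03, dashed. The phosphate and magnesium carriers have the highest list median (1.15), and KL, MCUB and ITPR1 lie far to the left of their lists, as RYR3 and SLC34A2 lie far to the right.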

How the data were processed

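The authors mapped paired reads of 15 libraries in CLC Genomics Workbench and deposited 1 table. Each deposited count is the number of reads the authors placed on a gene's exons or its whole span, in total or uniquely, and is not normalized. RPKM values, as deposited, divide these by exon length and by the library's reads on genes. The deposited normalized values (a signal) are the authors' RPKM after quantile normalization. Deposited fold changes and p-values of the authors' own test were not used. Per the labels each library ran on 2 lanes whose reads were combined, while each column name carries 1 lane.

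Exon reads were used (whole-span reads for the 5583 features that lack a transcript), 6471237 to 16898986 per library in late pregnancy and 9014506 to 24001031 in lactation. Tests used edgeR 4.0.16 (R 4.3.3): filterByExpr, TMM, quasi-likelihood F-test, Benjamini-Hochberg over all tested genes, called under 0.05. The fit was tested on simulated data in which few genes differed, evenly in both directions. Those data held no shift like that of the milk protein genes, so that run does not bear on the choice of scaling. Intron reads are whole-gene minus exon reads, on exon TMM factors. The SE is the log2 difference over the square root of F. Correlations used log2 of CPM plus 1. Shares used exact permutation tests (scipy 1.17.1). Alternatives used DESeq2 1.42.0 and limma 3.58.1. The 10 genes and all lists were chosen with earlier results of these data known. Named from each list were the 3 called genes with the largest log2 difference in each direction at a mean of at least 1 CPM, of which 2 are not reported here. Listed genes at or near 0, with PTH1R and TRPV6, were named for their roles after their values were seen. P-values measure the spread between pools. Promoters and proteins are not analysed here.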

Additional observations from a re-analysis of the deposited data

Results flagged for a closer look

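Among 24 groups of values (each calcium gene but CASR, 2 shares and 1 ratio, in each state), 3 had a library far from the others by Dixon's test, which chance flags in about 1 of 20 groups. ATP2B2 was at 16.5 CPM in HM pool 1 of late pregnancy, with the next library at 10.6. The share of ATP2B2 among the plasma membrane pumps was 29.4% in the same library, with the next at 20.2%, and both rest on the same reads. The share of ATP2C2 among the Golgi pumps was 44.3% in HM pool 2 of late pregnancy, the library with the fewest reads, with the next at 54.8%.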

How the results depend on the processing

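PTH-RP, ATP2C2, ATP2B2, ATP2B1 and the 2 shares kept their direction and call under every alternative run. With library size only, ATP2C1 (-1.68), ATP2A2 (-0.59) and ORAI1 (-0.63) reversed, as did their intron reads (-1.29, -0.74 and -0.84), ATP2B4 became called (-2.12), STIM1 introns too (-1.92), and 10648 genes were called on introns. The ATP2C1 call was lost with upper-quartile scaling (0.08), quantile-normalized RPKM (0.09) and within lane 7 (0.16), where STIM1 (-0.23) lost its call too and ATP2B4 was at 0.19. The lane 7 and lane 8 fits and the ratio of ORAI1 to STIM1 were added after seeing the data. With at least 10 reads in every library 3913 genes were called on introns, and ATP2B4 and the introns of ORAI1 gave no value. DESeq2 called 20 genes for dam nutrition and 21 for the interaction. Leaving out single libraries gave 0 to 1 genes for dam nutrition (1 without LM pool 1 of late pregnancy), 0 to 10 for the interaction (10 without HM pool 2 and 2 without LM pool 2 of lactation) and -0.09 to 0.09 for STIM1 introns. Except where given, the cause was not tested.

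The same ewes were sampled in both states, but nothing says that pools of one number hold the same ewes. Deviations of same-numbered pools correlated between -0.05 and 0.12, and 1 of 6 lactation libraries correlated best with its own number. The replicate block of dam nutrition and pool changed no call of the 10 genes, and over the 6 pairs the share of ATP2B2 differed by 60.9 percentage points (exact sign-flip test, p = 0.0312, the smallest possible). The ratio of PTH-RP to CASR was not run under any setting because CASR was at 0 in lactation. CASR had at most 2 exon reads in a library, ATP2B4 6 to 79 and the introns of ORAI1 5 to 20.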
